A study of Mus musculus with 44 samples.

Results

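The hypothalamus of obese mice given an inert oligonucleotide was compared with that of lean mice. The comparison took the 12 libraries of the 44 in the series that were labelled AM608 replicates 5 to 12 (n = 8) or RCD replicates 9 to 12 (n = 4). All 12 carried the label of batch 2, the batch that held both groups, and all miRNA and tRNA fragment (tRF) rows were analysed. All mice were C57Bl/6J. The AM608 mice had eaten a high fat diet for 11 weeks until they had diet-induced obesity, and then received an intravenous 3.3 mg/kg dose of AM608 on each of 3 consecutive days. AM608 is a 15-mer modified with locked nucleic acid that pairs with miR-608, a miRNA specific to primates, and it served as the control oligonucleotide. These mice were sacrificed 7 days after treatment. Some values are also cited from the AM132 mice of batch 2 (n = 8), which received an oligonucleotide against miR-132. Their labels give the same dose, injection days, weeks of diet and days after treatment as those of AM608. The RCD mice were age-matched and ate regular chow, and no injection is described for them, so obesity, diet and injection cannot be told apart here. Neither the sex nor the age of the mice is given. Each library is labelled as its own numbered mouse sample. Nothing states how cages or dissection days were arranged, so p-values measure the spread between these libraries.

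The hypothalamus senses nutrients and hormones and sets food intake and energy expenditure through its neuropeptide neurons. A miRNA is a short RNA cut from 1 arm of a hairpin, and its seed, bases 2 to 8, pairs with target messages and so groups miRNAs into families with shared targets. A tRF is a piece of a tRNA: 5′-halves and 3′-halves end or begin at the anticodon, 5′-tRFs and 3′-tRFs start or stop elsewhere, and i-tRFs lie inside the tRNA.

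The mature miRNAs below come from those of smallest p, with partners of their clusters or seed, and none of them passed the test. The seed is in capitals, and the sequences are as RefSeq gives them for GRCm38.p6. Others of small p, such as miR-187-3p and miR-5099, were not found there. The first group comes from a cluster on the plus strand of chromosome 11, with miR-216b-5p at chr11:28746204-28746225, miR-216a-3p at chr11:28757058-28757079 and miR-217-5p at chr11:28763761-28763783.
miR-216b-5p: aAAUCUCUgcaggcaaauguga
miR-216a-3p: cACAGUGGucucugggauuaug
miR-217-5p: uACUGCAUcaggaacugacugga
miR-690 lies at chr16:28599940-28599961 (minus strand), in an intron of Fgf12. The miR-322/503/351 cluster of chromosome X gave miR-322-3p at chrX:53054269-53054289 and miR-351-5p at chrX:53053315-53053338, both on the minus strand and outside other annotated genes.
miR-690: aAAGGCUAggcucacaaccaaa
miR-322-3p: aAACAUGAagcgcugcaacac
miR-351-5p: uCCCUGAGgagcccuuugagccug
miR-103-3p and miR-107-3p share a seed, and lie in introns of Pank2 (chr2:131288103-131288125, plus strand, 1 of 2 loci) and Pank1 (chr19:34820700-34820722, minus strand).
miR-103-3p: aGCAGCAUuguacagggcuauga
miR-107-3p: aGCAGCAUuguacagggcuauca
miR-409-3p and miR-369-5p lie at chr12:109743204-109743225 and chr12:109743431-109743452 on the plus strand, in introns of the noncoding gene Mirg within the imprinted Dlk1-Dio3 region.
miR-409-3p: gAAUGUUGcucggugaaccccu
miR-369-5p: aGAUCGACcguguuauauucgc

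The tRFs below, as the deposited table spells them, are 5′ fragments of lysine tRNA LysCTT and glycine tRNA GlyGCC that form the ladders described later, and 5 of them are among the 12 tRFs of smallest p. They start at the first base of the tRNA and differ in where they end, and the capitals mark the bases past base 30. The number after "tRF-" in each name is the length in nucleotides (nt). Their locations are left out, because the table places 421 tRFs on chromosomes that the mouse lacks.
tRF-31-PSQP4PW3FJI0B, LysCTT: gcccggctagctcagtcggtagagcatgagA
tRF-32-PSQP4PW3FJI01, LysCTT: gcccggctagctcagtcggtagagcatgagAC
tRF-33-PSQP4PW3FJI0W, LysCTT: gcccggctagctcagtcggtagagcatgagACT
tRF-34-PSQP4PW3FJI0E5, LysCTT: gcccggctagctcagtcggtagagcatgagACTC
tRF-35-PSQP4PW3FJI0E7, LysCTT: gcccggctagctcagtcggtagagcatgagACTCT
tRF-36-PSQP4PW3FJI0E7E, LysCTT: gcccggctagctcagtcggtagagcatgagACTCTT
tRF-30-P4R8YP9LON4V, GlyGCC: gcatgggtggttcagtggtagaattctcgc
tRF-31-P4R8YP9LON4VD, GlyGCC: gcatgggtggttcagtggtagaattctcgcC
tRF-32-P4R8YP9LON4V3, GlyGCC: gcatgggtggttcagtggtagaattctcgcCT

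The 12 libraries held 3020192 to 5997234 miRNA counts and 53683 to 160383 tRF counts each. Neuronal miRNA markers were summed in each library, without a reference tissue, so the sums do not test the tissue label. The 14 neuronal miRNAs, led by miR-7a-5p, miR-9-5p and miR-128-3p, summed to between 239577 and 306806 CPM (counts scaled to a fixed library total) in each library. The highest sum was that of AM608 5. All CPM values here are scaled within their own table by TMM, a method that lines libraries up on the bulk of their features. Library AM608 5 stood apart in its miRNAs: 11 of 590 tested miRNAs were over 4-fold above the median of the other 7 AM608 libraries. AM608 9 followed with 7, and the other 6 AM608 libraries had none. In the tRFs, AM608 8 and RCD 10 stood apart. Their median Spearman correlation with the other libraries was 0.37 in each case, against 0.69 to 0.88 for the rest. Where leaving out AM608 5 (miRNAs), or AM608 8 or RCD 10 (tRFs), moved a printed fold change by over 1.5 times, the value without that library is given. This was not followed for the shortest LysCTT fragments, the longer GlyGCC fragments and the 5′ fragments named at the end.

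No miRNA passed the test between obese control-oligo and lean hypothalamus. Of 590 miRNAs tested with edgeR's quasi-likelihood test, 0 (0%) had a Benjamini-Hochberg adjusted p under 0.05, and the smallest was 0.632. At an unadjusted p under 0.05 there were 42 (7.12%), of which 24 (4.07%) were higher and 18 (3.05%) lower in AM608. DESeq2 also called 0, with 35 at an unadjusted p under 0.05. The median log2 fold change of all 590, as AM608 minus RCD, was 0.01, and -0.02 without AM608 5. The intervals show how large a difference the data still allow: for 561 miRNAs (95.1%) the 95% confidence interval lay within a 2-fold change either way, and for 433 (73.4%) within 1.5-fold. Fold changes beyond 2-fold were fitted for 6 miRNAs, all from the pituitary and epithelial list described later.

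**Figure D1:**
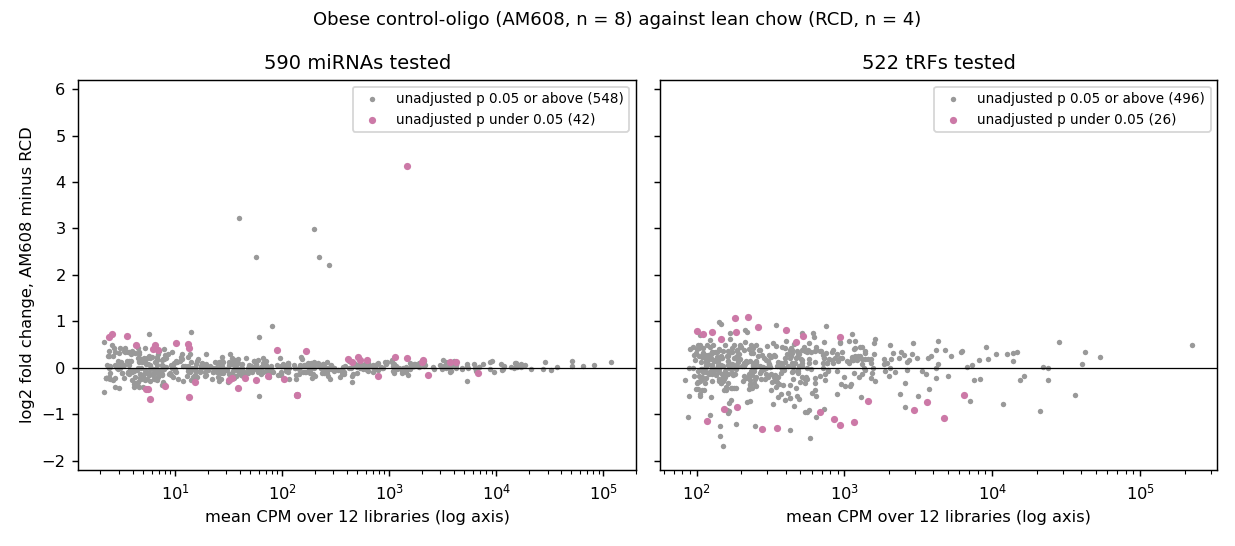
Log2 fold change (AM608, n = 8, minus RCD, n = 4; vertical axis) against mean CPM on a log axis for 590 miRNAs (left) and 522 tRFs (right), with features at an unadjusted p under 0.05 in pink. The miRNAs lie close to 0 apart from 6 points above 1, while the tRFs scatter more widely and their pink points below 0 reach higher levels than those above it.

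The most abundant miRNAs differed little between the groups. The 10 most abundant held 50.9% of the miRNA counts, and their largest log2 fold change in either direction was 0.14, that of miR-99a-5p (52828 ± 5324 CPM in AM608, SD, n = 8, and 47963 ± 3491 in RCD, SD, n = 4). miR-7a-5p, which is enriched in hypothalamic and pituitary neuroendocrine cells, was the most abundant of all. It stood at 119833 ± 23349 CPM in AM608 against 110118 ± 8778 in RCD, a log2 fold change of 0.12 ± 0.13 (SE; adjusted p = 0.814), and of 0.02 without AM608 5. miR-9-5p, a regulator of neuronal differentiation, stood at 81979 ± 4541 and 78954 ± 5305 CPM (0.05 ± 0.06; adjusted p = 0.814). The guide arms miR-26a-5p, miR-128-3p, let-7f-5p, miR-125b-5p, let-7g-5p and miR-29a-3p each had groups that overlapped.

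miR-216b-5p gave the smallest p of all miRNAs. It is best known, with miR-216a and miR-217, from pancreatic acinar cells. The AM608 libraries ran from 138.9 through a median of 183.8 to 210.3 CPM, and RCD 9 to 12 stood at 133.6, 147.0, 139.9 and 141.0 CPM. Of the 8 AM608 libraries, 7 lay above every RCD library and AM608 12 lay within the RCD range. The log2 fold change was 0.35 ± 0.09 (SE), or 1.28-fold, with an unadjusted p of 0.00208 and an adjusted p of 0.632. The other tested arms of the cluster also had positive fold changes, although each of those groups overlapped. miR-216a-3p, the less abundant arm of its hairpin, was at 14.5 ± 2.47 CPM in AM608 and 10.2 ± 2.04 in RCD (0.51 ± 0.15; adjusted p = 0.632). The values were 0.73 ± 0.33 for miR-216b-3p, at 3.06 and 1.63 CPM, 0.20 ± 0.11 for miR-217-5p and 0.10 ± 0.12 for miR-216a-5p, the last at 0.05 without AM608 5. Of the list of this cluster, miR-216a-5p, miR-216b-5p and miR-217-5p, 3 of 3 were higher, beside 51% of all miRNAs, and 0 passed the test. Their median was 0.20 beside 0.01 over all miRNAs. This list holds miR-216b-5p itself and was chosen with earlier results of these data known, so it is not separate evidence. In the mice given the oligonucleotide against miR-132 (AM132, n = 8, the same RCD libraries as the reference), miR-216b-5p differed from RCD by 0.09 and miR-217-5p by 0.21.

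The miR-322/503/351 cluster of chromosome X had mostly negative fold changes. miR-322 is the mouse counterpart of human miR-424, and its family acts on cell cycle messages. miR-322-3p ranged from 27.57 through a median of 35.1 to 41.4 CPM in AM608, and RCD 9 to 12 stood at 51.0, 55.8, 37.5 and 40.1 CPM. Of the 8 AM608 libraries, 5 lay below every RCD library. The log2 fold change was -0.43 ± 0.14 (SE; unadjusted p = 0.00955, adjusted p = 0.637). miR-351-5p ranged from 26.5 through 29.7 to 34.1 CPM in AM608, against 38.9, 35.5, 31.9 and 37.7 in RCD, a log2 fold change of -0.27 ± 0.10 (adjusted p = 0.637). Among the other tested arms within 10 kb, miR-542-3p was at -0.41 ± 0.20, miR-503-5p at -0.28 ± 0.17, miR-322-5p at -0.19 ± 0.13 and miR-450a-5p at -0.16 ± 0.12. The remaining arms had positive values with wide errors, miR-503-3p at 0.12 ± 0.19 and miR-450b-5p at 0.07 ± 0.36, and none of these passed the test.

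miR-103-3p, which with miR-107-3p lowers insulin sensitivity in liver and fat, differed by a small amount that was tightly measured. It ranged from 2101 through 2189 to 2345 CPM in AM608, and RCD 9 to 12 stood at 2344, 2685, 2263 and 2485 CPM. Of the AM608 libraries, 6 of 8 lay below every RCD library. The log2 fold change was -0.15 ± 0.05 (95% confidence interval -0.26 to -0.03; unadjusted p = 0.014, adjusted p = 0.637). miR-107-3p, of the same seed, was at 485.7 ± 43.02 CPM in AM608 and 527.0 ± 45.3 in RCD (-0.12 ± 0.08; adjusted p = 0.723). In the AM132 mice against the same RCD libraries the values were -0.10 for miR-103-3p and -0.15 for miR-107-3p.

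**Figure D2:**
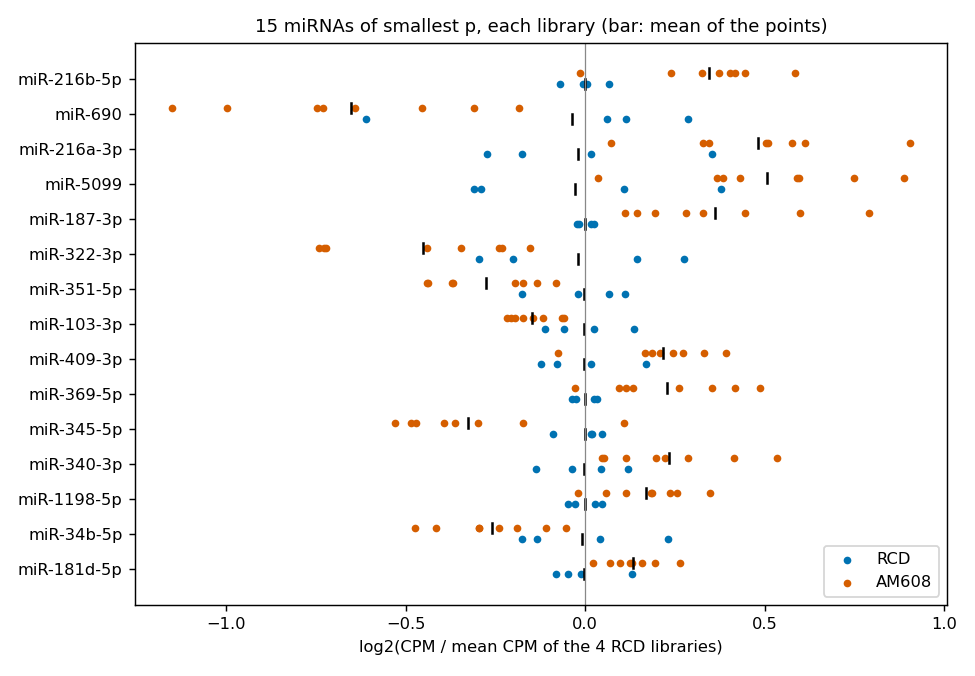
Each library's log2 ratio to the mean CPM of the 4 RCD libraries (horizontal axis), for the 15 miRNAs of smallest p with a mean of at least 10 CPM; orange points are the 8 AM608 libraries, blue points the 4 RCD libraries and black bars the mean of the points. In miR-187-3p the 2 colours separate; in the other 14 they overlap, and miR-690 has the lowest AM608 mean relative to RCD.

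Of the other miRNAs with the smallest p-values, miR-690 was the lowest in AM608 relative to RCD. It ranged from 7.89 through 10.9 to 15.4 CPM in AM608, with RCD 9 to 12 at 18.9, 11.5, 21.3 and 18.3 CPM. RCD 10 thus lay inside the AM608 range, and the log2 fold change was -0.63 ± 0.18 (SE; unadjusted p = 0.0041, adjusted p = 0.632). miR-187-3p ranged from 80.4 through 91.9 to 128.8 CPM in AM608 and from 73.3 to 75.6 CPM in RCD, so that the groups did not overlap (0.38 ± 0.12; adjusted p = 0.632). Across all 590 miRNAs the groups did not overlap in 3 (0.508%), each with AM608 above. The other members of this group of 3, named after their values were seen, were miR-7688-5p at 4.01 ± 0.72 against 2.54 ± 0.36 CPM and miR-669o-5p at 7.15 against 4.94 CPM. For miR-669o-5p the groups nearly touched, with the lowest AM608 library at 6.043 CPM and the highest RCD library at 6.035. miR-5099 was at 11.2 ± 1.99 CPM in AM608 and 7.80 ± 1.84 in RCD (0.54 ± 0.17; adjusted p = 0.632).

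A pair of miRNAs of the imprinted Dlk1-Dio3 region, a maternally expressed cluster active in brain, were among the smallest p-values. miR-409-3p ranged from 1251 through 1542 to 1729 CPM in AM608, with RCD 9 to 12 at 1333, 1209, 1249 and 1482 CPM, so that 6 of 8 AM608 libraries lay above the RCD libraries (0.22 ± 0.08; adjusted p = 0.637). miR-369-5p ranged from 985 through 1153 to 1408 CPM, with RCD at 1029, 980, 1023 and 988 CPM, and 7 of 8 lay above (0.24 ± 0.09; adjusted p = 0.637). The cluster as a whole did not lean one way. Of its 40 listed miRNAs, all tested, 20 were higher and 20 lower, 7 had an unadjusted p under 0.05 (42 of 590, or 7.12%, over all miRNAs), 0 passed the test and the median log2 fold change was 0.00, and -0.01 without AM608 5.

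The remaining 5 miRNAs of the 15 lay on both sides. miR-340-3p, from an intron of Rnf130, was at 532.6 ± 66.0 CPM in AM608 and 450.0 ± 33.97 in RCD (0.24 ± 0.09). miR-1198-5p, from an intron of Gripap1, was at 555.3 ± 44.6 and 492.0 ± 15.4 CPM (0.17 ± 0.07), and miR-181d-5p at 2082 ± 109 and 1898 ± 126 CPM (0.13 ± 0.05). On the lower side, miR-345-5p was at 14.3 ± 2.25 and 17.7 ± 0.72 CPM (-0.31 ± 0.12). miR-34b-5p, a miRNA of ciliated cells, was at 52.9 ± 5.23 and 63.1 ± 8.32 CPM (-0.25 ± 0.10). The adjusted p was 0.637 in each of these 5.

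Among the 19 miRNAs tied to energy balance, 11 were higher and 8 lower in AM608, 1 had an unadjusted p under 0.05 (miR-103-3p) and 0 passed the test. The median log2 fold change was 0.02, and -0.02 without AM608 5. Positive fold changes beyond 2-fold belonged to miR-200a-3p, miR-200b-3p and miR-429-3p, which are described with AM608 5 below. Outside these the differences were small. miR-383-5p was at 1921 ± 130 CPM in AM608 and 1773 ± 166 in RCD (0.12 ± 0.07; adjusted p = 0.637). miR-342-3p, from an intron of Evl, was at 447.6 ± 37.6 and 490.9 ± 44.7 CPM (-0.13 ± 0.08; adjusted p = 0.637). miR-145a-5p, a miRNA of vascular smooth muscle, was at 126.9 ± 15.0 and 150.9 ± 31.9 CPM (-0.25 ± 0.12; adjusted p = 0.637). Its fold change was -0.12 without RCD 9. In the remaining members the groups overlapped closely. For miR-137-3p, which acts in neurons, the means were 623.3 ± 75.9 and 623.2 ± 42.9 CPM. miR-488-3p, from an intron of the neuronal gene Astn1, stood at 599.0 ± 52.0 and 609.4 ± 88.8 CPM, miR-384-3p at 1451 ± 93 and 1427 ± 66 CPM and miR-155-5p, an inflammatory miRNA, at 9.78 ± 1.07 and 10.3 ± 1.19 CPM. let-7a-5p, miR-9-3p, miR-30e-5p, miR-100-5p, miR-218-5p and miR-7b-5p each had an adjusted p of 0.829 or more.

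miR-132-3p, the miRNA that the study's other oligonucleotide targets, did not differ beyond the spread between libraries. It ranged from 648.7 through 757.4 to 891.0 CPM in AM608, with RCD 9 to 12 at 804.3, 781.7, 843.0 and 768.4 CPM, and the log2 fold change was -0.05 ± 0.08 (95% confidence interval -0.22 to 0.11; adjusted p = 0.863). miR-212-3p, which shares its seed, was at 51.3 ± 7.93 and 54.3 ± 9.84 CPM (-0.08 ± 0.14). Without AM608 5 the fold changes were -0.11 for miR-132-3p and -0.16 for miR-212-3p. The 5p arms miR-132-5p and miR-212-5p, each more abundant here than its 3p arm, stood at 1300 ± 95 and 1329 ± 161 CPM, and at 1404 ± 142 and 1440 ± 114 CPM. Of the 4, 0 had an unadjusted p under 0.05. In the AM132 mice, miR-132-3p differed from the same RCD libraries by -0.80 ± 0.29 (SE; adjusted p = 0.488).

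The lists of cell types and metabolism gave no call, with 0 members passing the test in any of them. Of 16 tested insulin and lipid miRNAs, 7 were higher and 9 lower (median 0.00, and -0.04 without AM608 5). The 2 with an unadjusted p under 0.05 were miR-103-3p and miR-378a-3p, which is made from an intron of the coactivator gene Ppargc1b. miR-378a-3p ranged from 710 through 740 to 846 CPM in AM608, with RCD 9 to 12 at 975, 918, 743 and 767 CPM (-0.18 ± 0.08; adjusted p = 0.637). Of 7 tested myeloid and inflammatory miRNAs, 2 were higher and 5 lower, with miR-146b-5p at 2188 ± 212.3 and 1981 ± 84 CPM (0.14 ± 0.07) and miR-142a-5p, a blood cell miRNA, at -0.13 ± 0.09. Of 14 neuronal miRNAs, 8 were higher and 6 lower (median 0.02, and 0.0021 without AM608 5), and those of smallest p were miR-129-2-3p (-0.19 ± 0.10) and miR-129-1-3p (-0.16 ± 0.11). The 4 oligodendrocyte miRNAs were all positive (median 0.11), led by miR-219a-5p at 37.1 ± 4.92 and 33.02 ± 5.66 CPM (0.17 ± 0.13) and miR-338-3p (0.13 ± 0.10), both of which promote myelination. The 3 miR-29 miRNAs of astrocytes were all slightly negative (median -0.03, and -0.05 without AM608 5), with miR-29a-3p at -0.03 ± 0.04 and miR-29c-3p at -0.04 ± 0.07.

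Markers of other tissues that a dissection could include also gave no call. Of 5 endothelial and mural miRNAs 4 were lower (median -0.18). miR-143-3p of smooth muscle was at -0.27 ± 0.18, with RCD 9 at 10004 CPM and the other RCD libraries at 4429 to 5252. Without RCD 9 its fold change was 0.06. All 5 erythroid miRNAs were lower (median -0.17, and -0.08 without AM608 5), with miR-451a at -0.29 ± 0.28 and miR-144-3p at -0.24 ± 0.26, and with summed levels of 635.6 to 1549 CPM in AM608 and 899.9 to 1457 in RCD. Of 12 choroid plexus and ciliated cell miRNAs 8 were lower (median -0.07), with miR-764-5p, hosted by the serotonin receptor gene Htr2c, at -0.46 ± 0.18. Of 4 tested muscle miRNAs 3 were lower, with miR-1a-3p at -0.19 ± 0.11 and miR-133a-3p at -0.24 ± 0.17. The 3 tested Hox-linked miRNAs had positive fold changes (median 0.05, and 0.02 without AM608 5), with miR-615-3p at 0.34 ± 0.33 and miR-10a-5p at 0.05 ± 0.13. Of 9 let-7 miRNAs 6 were higher (median 0.03, and 0.004 without AM608 5), with miR-98-5p at 0.08 ± 0.05 and let-7i-5p at 0.06 ± 0.07. Of 11 tested miRNAs of the miR-17/92 clusters, which drive proliferation, 8 were lower (median -0.10), with miR-106b-5p at -0.21 ± 0.10 and miR-20b-5p at -0.52 ± 0.27. For comparison, 301 of all 590 miRNAs (51%) were higher and 289 (49%) lower.

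The pituitary and epithelial list rested on 1 library. miR-375-3p, a miRNA of endocrine cells including those of the pituitary, stood at 16483 CPM in AM608 5, at 78.1 to 233.7 in the other AM608 libraries and at 100.4 to 109.3 in RCD. The miR-200 family, which keeps cells epithelial, was likewise high in AM608 5. miR-200c-3p stood at 2088 CPM there, against 6.129 to 54.9 in the other AM608 libraries and 10.3 to 54.1 in RCD, and miR-141-3p at 420.4 against 0.51 to 6.14 and 2.16 to 10.4 CPM. All 11 members, miR-7a-2-3p and miR-7b-5p included, lay above every RCD library in AM608 5. The list summed to 68849 CPM in AM608 5, to 21217 to 33397 in the other AM608 libraries and to 25182 to 30332 in RCD. Its median log2 fold change was 2.20 with AM608 5 and -0.02 without it, and 0 of 11 passed the test either way. The fitted values with all libraries were 4.35 ± 1.87 for miR-375-3p, 3.22 ± 1.73 for miR-141-3p, 2.99 ± 1.68 for miR-200c-3p, 2.39 ± 1.27 for miR-429-3p, 2.38 ± 1.38 for miR-200b-3p and 2.20 ± 1.35 for miR-200a-3p. Those of the miR-183/96/182 sensory cluster were 0.90 ± 0.83, 0.78 ± 0.76 and 0.66 ± 0.73. Without AM608 5 the values were 0.04 for miR-375-3p, -0.89 for miR-141-3p, -0.78 for miR-200c-3p, 0.35 for miR-429-3p, -0.15 for miR-200b-3p and -8.7e-05 for miR-200a-3p. Those of miR-183-5p, miR-96-5p and miR-182-5p were 0.24, -0.036 and -0.10, and that of miR-7b-5p was 0.01 against 0.13 with all libraries. Smaller values outside the list also moved, to 0.08 for miR-503-3p, 0.05 for miR-98-5p, -0.05 for miR-29a-3p, -0.07 for miR-29c-3p, 0.0047 for miR-10a-5p and -0.05 for miR-212-5p. AM608 9 was the next highest AM608 library for the miR-200 and miR-183 families, with miR-200a-3p at 368 CPM and miR-183-5p at 265 CPM. The part that pituitary or epithelial tissue in the dissection plays in AM608 5 was not tested.

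**Figure D3:**
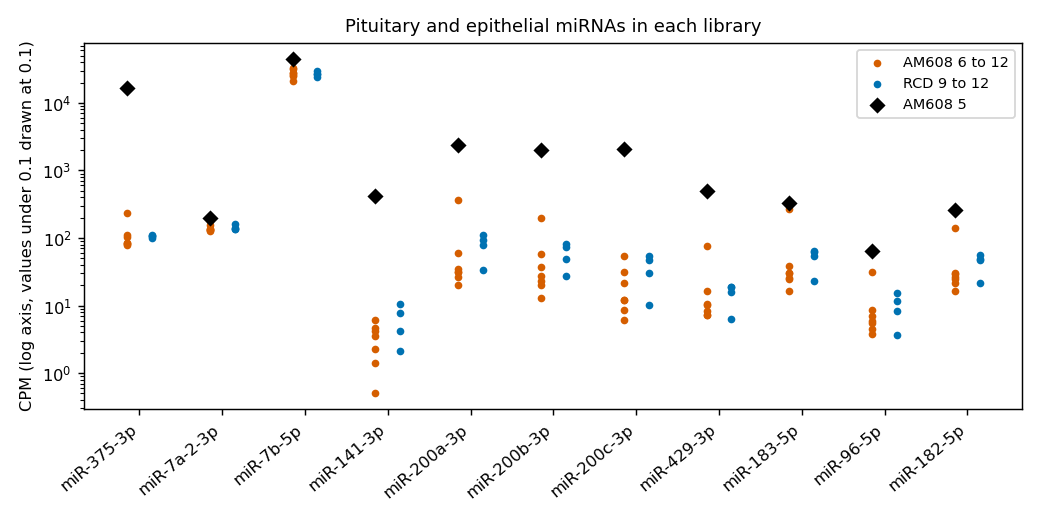
CPM on a log axis of the 11 pituitary and epithelial miRNAs in each library: black diamonds are AM608 5, orange points the other 7 AM608 libraries and blue points the 4 RCD libraries. AM608 5 lies above all others in every miRNA shown, while the orange and blue points overlap.

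Summing miRNAs with a shared seed did not bring out a family. Of 423 seed families, 0 (0%) passed the edgeR test and 25 (5.91%) had an unadjusted p under 0.05, 13 higher (3.07%) and 12 lower (2.84%) in AM608, with 20 by DESeq2, which also called 0. The families of smallest p were those led by miR-216b-5p (191.4 ± 22.2 and 150.8 ± 7.36 CPM, 0.34 ± 0.10), miR-690 (-0.64 ± 0.18), miR-216a-3p (0.50 ± 0.15), miR-7688-5p (0.67 ± 0.19) and miR-322-3p (-0.44 ± 0.14). Their adjusted p-values were 0.648 to 0.658.

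The balance between the arms of a hairpin did not pass the test either. It was taken as log2 of the 5p count over the 3p count, with 2 added to each, and tested with limma. Of 168 hairpins 0 (0%) passed and 14 (8.33%) had an unadjusted p under 0.05, 7 in each direction (4.17%), while 45.2% of all ratios were lower in AM608. The ratio of mir-22, whose 3p arm is the abundant one, ran from -4.14 through -4.04 to -3.95 in AM608 and stood at -4.25, -4.17, -4.19 and -4.28 in RCD 9 to 12. The groups did not overlap, which held for 2 of the 168 hairpins (1.19%), and the shift was 0.18 ± 0.07 (SE; adjusted p = 0.499). The other was mir-3084 (0.87 ± 0.27; adjusted p = 0.499), whose arms were near the count minimum, with miR-3084-3p at 4.79 CPM in AM608. mir-409 shifted by -0.29 ± 0.10 towards its 3p arm, and mir-1843b by -0.21 ± 0.08. let-7g shifted by -0.45 ± 0.16, its passenger arm let-7g-3p being at 6.83 and 5.02 CPM. The adjusted p was 0.499 in each.

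The tRFs gave no call in the same test, but were measured less precisely. Of 522 tRFs tested with edgeR, 0 (0%) passed, the smallest adjusted p was 0.364, and 26 (4.98%) had an unadjusted p under 0.05, of which 12 (2.3%) were higher and 14 (2.68%) lower in AM608. DESeq2 called 3 (0.575%), all lower, with 36 at an unadjusted p under 0.05. The 95% confidence interval lay within 2-fold for 221 tRFs (42.3%), against 95.1% of the miRNAs. Against the miRNAs, the tRFs as a whole differed by less than the spread between libraries. There were 2.49 ± 0.72 tRF counts per 100 miRNA counts in AM608 and 2.54 ± 0.81 in RCD, a difference of -0.04 in the mean log2 ratio (exact permutation test, 2-sided, p = 0.893, where the smallest p the design allows is 0.00202).

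The 3 tRFs of smallest p were 5′ fragments of GlyGCC and LysCTT. GlyGCC 5′-halves are among the most studied tRFs and are cut in the anticodon loop under stress. The 32 nt fragment tRF-32-P4R8YP9LON4V3 ran from 395.8 through 643.0 to 826.6 CPM of tRF counts in AM608, and RCD 9 to 12 stood at 1078, 1148, 1661 and 1380 CPM. All 8 AM608 libraries lay below all RCD libraries. The log2 fold change was -1.10 ± 0.25 (SE; unadjusted p = 0.000698, adjusted p = 0.364). DESeq2 gave -1.21 ± 0.25 with an adjusted p of 0.000433, and the adjusted p ranged from 0.000433 to 0.991 over all alternatives. In the AM132 mice it differed from the same RCD libraries by -0.70. The 30 nt fragment tRF-30-P4R8YP9LON4V ran from 268.6 through 692.3 to 873.2 CPM in AM608, with RCD at 1534, 2680, 913.4 and 880.3 CPM, again without overlap (-1.23 ± 0.36; adjusted p = 0.695). RCD 10 was the highest of these, and without it the fold change was -0.79. The more abundant 31 nt fragment between them, tRF-31-P4R8YP9LON4VD, ran from 2085 through 3457 to 4552 CPM, with RCD at 3083, 4189, 5630 and 5229 CPM, and these groups overlapped (-0.45 ± 0.29; adjusted p = 0.999).

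A difference between lengths was not tested, but the fold changes were most negative at 31 to 33 nt in the LysCTT ladder. Its 32 nt member tRF-32-PSQP4PW3FJI01 ran from 2345 through 2864 to 3714 CPM in AM608, with RCD 9 to 12 at 4571, 6442, 4866 and 3775 CPM, and the groups did not overlap (-0.73 ± 0.23; adjusted p = 0.695). The 33 nt member tRF-33-PSQP4PW3FJI0W ran from 2100 through 3252 to 6543 CPM, with RCD at 6864, 6715, 9906 and 5535 CPM. Of the AM608 libraries 7 of 8 lay below the RCD libraries, AM608 9 being the exception (-1.07 ± 0.30; adjusted p = 0.695). DESeq2 called both, at an adjusted p of 0.0123 and 0.0173, and over all alternatives the adjusted p ranged from 0.0123 to 0.998 for the first and from 0.0173 to 0.993 for the second. The 31 nt member was at -0.91 ± 0.34, and tRF-33-PSQP4PW3FJI0V, which ends in another base, at -0.95 ± 0.34 (adjusted p = 0.754 for both). Shorter members, of 28, 29 and 30 nt, were at -0.26 ± 0.21, -0.11 ± 0.27 and -0.39 ± 0.25. The 34 nt member was at -0.71 ± 0.46, and at -0.25 without RCD 11. The 35 nt and 36 nt members, which are far more abundant, were at 0.24 ± 0.79 and 0.32 ± 0.80. Without RCD 10 they were at -0.15 and -0.077, and without AM608 8 at 0.43 and 0.51. tRF-35-PSQP4PW3FJI0E7 spanned 2939 to 87991 CPM in AM608 and 3533 to 86280 CPM in RCD, so its level varied within both groups far more than between them.

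In a glutamate tRNA, GluCTC, fold changes were also negative at 31 to 33 nt and positive at 36 nt. tRF-31-87R8WP9N1EWJ0 was at -0.92 ± 0.44, tRF-32-87R8WP9N1EWJM at -0.58 ± 0.25 and tRF-33-87R8WP9N1EWJDW at -0.58 ± 0.31. tRF-36-87R8WP9N1EWJQ7D was at 0.34 ± 0.73. Leaving out RCD 10 moved the 31, 32 and 36 nt fragments to -0.38, -0.31 and -0.024, leaving out AM608 8 moved the 36 nt fragment to 0.53, and leaving out both moved the 33 nt fragment to -0.37. The 33 nt fragment, 1 of the 8 most abundant tRFs, ran from 22334 through 27942 to 56188 CPM in AM608, with RCD 9 to 12 at 39347, 62976, 41143 and 43164 CPM. AM608 9 was again the AM608 library within the RCD range. Other 5′ fragments of small p were tRF-32-Q1Q89P9L8422Q of GlyCCC at 119.7 ± 22.9 and 222.0 ± 122 CPM (-0.88 ± 0.30, and -0.50 without RCD 10), tRF-35-6SXMSL73VL4YMY of HisGTG at 815.7 ± 356 and 1841 ± 997 CPM (-1.17 ± 0.42) and the 33 nt 5′-half of ProCGG at 82.8 ± 61.8 and 188.2 ± 34.8 CPM (-1.15 ± 0.43), each with an adjusted p of 0.754. The ProCGG fragment had 1 to 28 counts per library.

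Taking all 5′ fragments by length, a grouping chosen after the values were seen and therefore given as a description with no test, those of 30 to 33 nt were lower in AM608 in 35 of 38 cases, with a median log2 fold change of -0.51. Over all 522 tRFs, 305 (58.4%) were higher and 41.6% lower, and the median was 0.08. The 38 came from 11 groups of tRNAs as the table names them. All 6 LysCTT fragments, all 4 of GlyGCC, all 3 of GluCTC, 8 of 9 of GluTTC and 7 of 9 of HisGTG were lower. Fragments of 1 tRNA overlap in sequence, so the 38 are not independent. At 34 to 36 nt 19 of 35 were lower (median -0.09), and at 47 to 50 nt 1 of 17 (median 0.31). Internal fragments of 30 to 33 nt were lower in 51 of 67 cases (median -0.23). Leaving out each library in turn gave 33 to 37 lower fragments and medians from -0.66 to -0.39, and without AM608 8 and RCD 10 there were 33 of 38, with a median of -0.38. With RLE size factors in place of TMM, which moved the median of all tRFs from 0.08 to -0.04 and the share of lower tRFs from 41.6% to 54.8%, 37 of 38 were lower. In the AM132 mice, against the same RCD libraries, 21 of the 38 were lower and the median was -0.03.

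**Figure D4:**
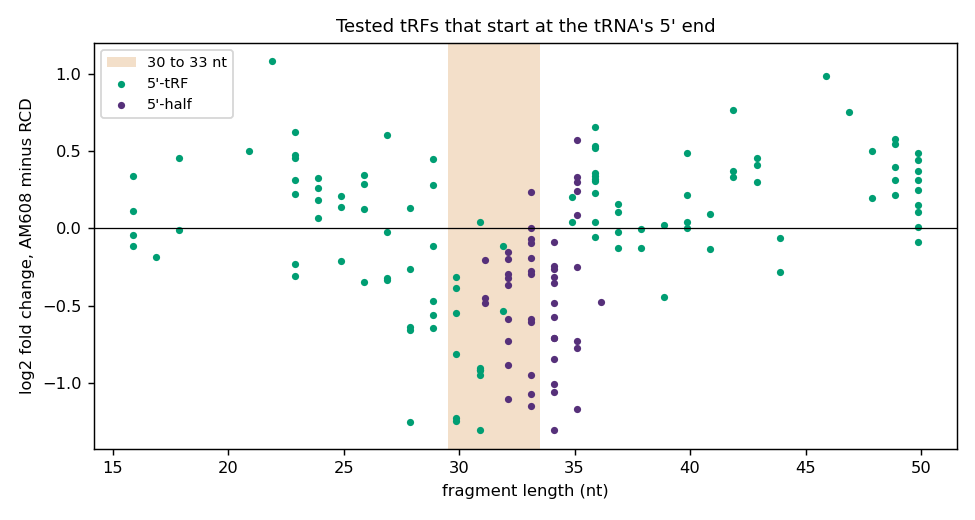
Log2 fold change (AM608 minus RCD, vertical axis) of each tested tRF that starts at the 5′ end of its tRNA, against its length in nt; green points are 5′-tRFs, purple points 5′-halves, and the shaded band marks 30 to 33 nt. In the band 35 of 38 points lie below 0, and at 47 to 50 nt 16 of 17 lie above it.

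The shares of these lengths were also taken in each library, from raw counts not scaled by TMM. They need not follow single fragments, as tRF-32-P4R8YP9LON4V3 was highest in RCD 11 and RCD 12, at 1661 and 1380 CPM. Fragments of 30 to 33 nt from the 5′ end made up 4.53% to 10.2% of the tRF counts in the AM608 libraries. In RCD 9 to 12 they made up 13.3%, 24.8%, 7.74% and 9.21%. RCD 11 and RCD 12 thus fell within the AM608 range, and RCD 9 and RCD 10 above it. The 34 to 36 nt fragments made up 3.53% in AM608 8, 8.83% in RCD 10, and 13.07% to 27.2% in the other libraries. The 47 to 50 nt fragments ranged from 6.06% to 62.0% in AM608 and from 6.16% to 38.2% in RCD. Most of these were 1 molecule, the 50 nt LysCTT fragment tRF-50-PSQP4PW3FJIKE7UMKKSW, the most abundant tRF of all. It ran from 35672 through 189006 to 500846 CPM in AM608, and RCD 9 to 12 stood at 284325, 221082, 162654 and 41649 CPM (0.49 ± 0.68; adjusted p = 0.999). Its fold change was 0.27 without AM608 8 and 0.17 without RCD 12. It comes from another LysCTT sequence than the ladder printed above, and 50 nt is the greatest length in the table. The part that differences between libraries in fragment length play in the fold changes was not tested.

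**Figure D5:**
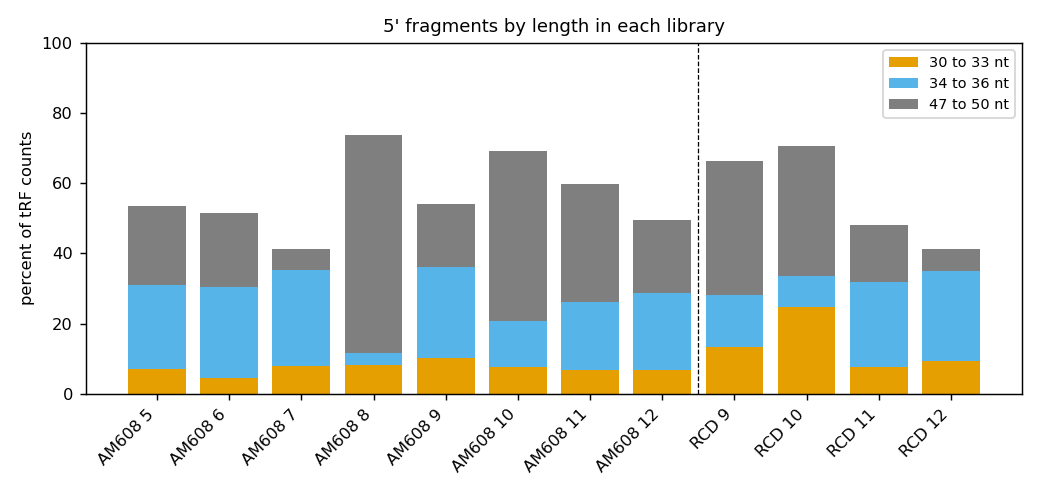
Share of each library's tRF counts (percent, stacked bars) held by 5′ fragments of 30 to 33 nt, 34 to 36 nt and 47 to 50 nt, with the AM608 libraries left and the RCD libraries right of the dashed line. RCD 9 and RCD 10 have the tallest 30 to 33 nt segments, at 13.3% and 24.8%, and AM608 8 the tallest 47 to 50 nt segment, at 62.0%.

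Among tRFs that were higher in AM608, the 3′-half tRF-40-YDLBRY73W0K5KKOV of asparagine tRNA AsnGTT did not overlap between groups. It ran from 784.2 through 986.1 to 1962 CPM in AM608, with RCD 9 to 12 at 728.9, 689.0, 564.6 and 716.2 CPM (0.67 ± 0.28; adjusted p = 0.838). Over all 522 tRFs the groups did not overlap in 4 (0.766%), of which 3, the GlyGCC and LysCTT fragments above, had AM608 below. tRF-36-UD10H7RNLEKPM4D, internal to ThrAGT, was at 309.5 ± 91.6 and 165.1 ± 40.1 CPM (0.89 ± 0.27; adjusted p = 0.695). The internal GlyGCC fragment tRF-36-9LON4VN1EH6KK80, which spans the anticodon, was at 271.6 ± 83.0 and 124.2 ± 69.5 CPM (1.09 ± 0.35; adjusted p = 0.695). GlyGCC 5′ fragments of 30 to 32 nt, printed above, had negative fold changes. The longer tRF-35-P4R8YP9LON4VN1 of the same sequence was at 0.04 ± 0.71. Longer fragments of another GlyGCC sequence were on both sides of 0, with tRF-49-PNR8YP9LON4VN1EH6K1K at 0.39 ± 0.20 and tRF-38-PNR8YP9LON4VN18 at -0.13 ± 0.78. tRF-17-H7PU4HJ was at 118.9 ± 35.7 and 66.3 ± 19.1 CPM (0.79 ± 0.30; adjusted p = 0.754), on 3 to 12 counts per library. Of the most abundant tRFs, the internal LysCTT and GluCTC fragments tRF-33-3JVIJMRPFQ5D03 and tRF-33-389MV47P596V03 ranged from 252.6 to 37093 CPM and from 310.0 to 40389 CPM in AM608, with RCD 10 at 229.7 and 284.4 CPM. The groups overlapped throughout.

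Summed by tRNA and fragment type, 118 classes were tested, of which 0 (0%) passed and 10 (8.47%) had an unadjusted p under 0.05, 4 higher (3.39%) and 6 lower (5.08%), with 11 by DESeq2, which called 0. Over all classes 58.5% had a higher fold change in AM608. ProCGG 5′-halves were at 85.3 ± 61.5 CPM in AM608 and 182.7 ± 33.8 in RCD (-1.07 ± 0.39), and GlyGCC 5′-halves at 3851 ± 1129 and 5684 ± 1164 CPM (-0.56 ± 0.23). The ProCGG class had 1 to 28 counts per library. ArgTCG 3′-tRFs were at 129.9 ± 37.3 and 195.1 ± 26.4 CPM (-0.56 ± 0.23), without overlap, the single such class (0.847%). Its groups nearly touched, with the highest AM608 library at 173.4 CPM and the lowest RCD library at 173.6, on 6 to 27 counts per library. LeuAAG i-tRFs were at 849.2 ± 193 and 583.0 ± 229 CPM (0.57 ± 0.25, and 0.34 without RCD 11), and AsnGTT 3′-halves at 7407 ± 1508 and 5719 ± 716 CPM (0.37 ± 0.17). The adjusted p was 0.560 in all 5. Among the single 5′-halves 40 of 47 were lower, and among the 3′-halves 3 of 18, beside 41.6% of all 522 tRFs. With DESeq2 the counts were 42 of 47, 9 of 18 and 283 of 522.

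The composition of the tRF pool was tested over 11 values, 5 fragment types and 6 amino acids, each by an exact permutation test (2-sided), and the adjusted p was 0.998 for each. 5′-halves made up 17.7% ± 4.94 of the tRF counts in AM608 (SD, n = 8) and 21.4% ± 2.21 in RCD (SD, n = 4), a difference of -3.62 percentage points (exact p = 0.212). 5′-tRFs made up 42.2% ± 15.2 and 38.7% ± 16.3, i-tRFs 33.7% ± 10.2 and 33.7% ± 15.9, 3′-tRFs 4.85% ± 1.54 and 4.89% ± 1.00, and 3′-halves 1.47% ± 0.58 and 1.31% ± 0.27. Lysine tRNAs gave 50.7% ± 8.82 and 46.99% ± 6.01 of the counts, and glutamate tRNAs 23.5% ± 7.03 and 27.58% ± 4.43. Leucine, glycine, histidine and glutamine tRNAs followed, at 7.67% and 7.133%, 5.2% and 5.48%, 2.78% and 2.85%, and 1.80% and 1.72%.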

How the data were processed

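Small RNA was extracted from mouse hypothalamus and sequenced on a NextSeq 500 after NEBNext small RNA library preparation, per the labels' protocols. The authors deposited a raw count for each miRNA and each tRF in each library. The aligner, counter, genome build and tRNA reference are not given in the sources used here. The table holds 1978 miRNAs and 17051 tRFs of 16 to 50 nt, of which 571 and 7218 had no count in the 12 libraries.

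Low features were removed from these counts with filterByExpr at a minimum count of 10 and a total of 15. TMM factors were computed separately for miRNAs and tRFs, and the 8 AM608 and 4 RCD libraries of batch 2 were compared with edgeR 4.0.16 (glmQLFit, glmQLFTest). Adjustment was by Benjamini-Hochberg over all features tested (threshold 0.05). Standard errors come from the F statistic. Arm ratios (pseudocount 2) used limma 3.58.1, all in R 4.3.3. The tests were run first on simulated data. Alternatives were DESeq2 1.42.0, RLE size factors, other filters (none, or 10 CPM in 4 libraries), a robust fit, a joint scaling of both tables, all 3 groups of batch 2, a replicate block, and leaving out each library. Leaving out AM608 8 and RCD 10 together, and the 8 libraries numbered 9 to 12 without a block, were added after the data were seen. Arm ratios were also run with a pseudocount of 0.5 and with both arms at 10 CPM, and the composition with tRFs of up to 46 nt only. Replicate numbers did not pair the libraries throughout, as some same-numbered libraries deviated together in tRFs and others did not. No pair of libraries within a group was a duplicate (smallest chi-square per degree of freedom 11.9).

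Named features are the 15 miRNAs and 12 tRFs of smallest p at a mean of at least 10 and 100 CPM, the 10 and 8 most abundant, up to 6 whose groups do not overlap, the 2 members of smallest p of each list, all members of the miR-132/212, energy balance, and pituitary and epithelial lists, and the 5 families, classes and arm ratios of smallest p. Neighbours within 10 kb and tRFs of the same ladder were added. The members and lists were chosen with earlier results of these data known. Mature sequences of 1679 of the 1978 miRNAs (93.6% of miRNA counts) were found in RefSeq (GRCm38.p6), and host genes come from GENCODE of the same build. miR-187-3p, miR-5099, miR-375-3p and miR-378a-3p are named without a sequence.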

Additional observations from a re-analysis of the deposited data

Results flagged for a closer look

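Of 236 group values checked for a library far from the rest of its group, 23 stood apart by Dixon's criterion. The criterion's rate of about 1 in 20 by chance holds for independent, normally distributed values. Many of these features rose together in 1 library and were picked in part for small p, so that rate cannot be set against the 23. In AM608 5 these were miR-375-3p at 16483 CPM, miR-200a-3p at 2370 CPM, miR-200c-3p at 2088 CPM, miR-200b-3p at 2041 CPM, miR-429-3p at 488 CPM, miR-141-3p at 420 CPM and miR-96-5p at 64.2 CPM, all far above the other AM608 libraries. AM608 9 was the high library for 4 tRF values: tRF-33-87R8WP9N1EWJDW at 56188 CPM, tRF-33-PSQP4PW3FJI0W at 6543 CPM, tRF-33-PSQP4PW3FJI0V at 1176 CPM and the 33 nt 5′-half of ProCGG at 221 CPM. It was also high for the class of ProCGG 5′-halves, at 219.7 CPM. AM608 12 was high for tRF-40-YDLBRY73W0K5KKOV at 1962 CPM and for AsnGTT 3′-halves at 10793 CPM. In the same library 3′-tRFs made up 8.52%, 3′-halves 2.86% and glutamine tRNA fragments 3.17% of the tRF counts. AM608 11 was high for miR-503-3p at 16.9 CPM. Among the RCD libraries, RCD 9 was high for miR-143-3p at 10004 CPM, and RCD 10 for miR-503-3p at 12.6 CPM, miR-764-5p at 9.02 CPM and tRF-33-87R8WP9N1EWJDW at 62976 CPM. RCD 11 was high for tRF-33-PSQP4PW3FJI0V at 1378 CPM.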

How the results depend on the processing

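The alternatives were followed for 106 miRNAs, tRFs, families, classes and arm ratios. Some tRFs with a printed fold change were not among them. Of the 106, 85 kept their direction and their side of the threshold under every alternative that gave a value. A further 18 changed sign under at least 1, and 3, the GlyGCC and LysCTT fragments, passed under DESeq2. The count of tRFs past the test was 0, and 3 under DESeq2 and 3 without a low-count filter. The latter 3 were other tRFs, tRF-30-MEF91SS2PMFI, tRF-31-6XQ6S8V0J8O9E and tRF-31-QP4PW3FJIKE7E (edgeR, adjusted p = 0.0361). For miRNAs, seed families, classes and arm ratios the count was 0 under every alternative run.

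Replicate numbers 9 to 12 are shared by both groups, but same-numbered libraries did not deviate together throughout. In miRNAs the correlation of their deviations (r) ran from -0.12 to 0.32. In tRFs r was 0.71 for replicate 10 and 0.60 for replicate 11, but -0.65 for replicate 9 and -0.23 for replicate 12. With a replicate block on these 8 libraries, 0 miRNAs and 0 tRFs passed, and the signs of miR-141-3p (-0.80), miR-200a-3p (-0.10), miR-200b-3p (-0.054), miR-200c-3p (-0.51), miR-375-3p (-0.18), miR-451a (0.11) and miR-144-3p (0.15) turned. AM608 5 is not among them. The same 8 libraries without the block gave -0.77 for miR-141-3p, -0.41 for miR-200c-3p, -0.17 for miR-375-3p, 0.082 for miR-451a and 0.11 for miR-144-3p, while miR-200a-3p (0.59) and miR-200b-3p (0.35) stayed positive. DESeq2, run at its default settings, gave -0.86 for miR-141-3p, -0.033 for miR-200a-3p, -0.15 for miR-200b-3p, -0.71 for miR-200c-3p and -0.12 for miR-182-5p. In the same order, edgeR without AM608 5 gave -0.89, -8.7e-05, -0.15, -0.78 and -0.10. The part that DESeq2's treatment of outlying counts plays was not tested, nor was the cause of the other changes.

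Leaving out 1 library at a time gave these ranges of log2 fold change: miR-141-3p -0.89 to 3.59, miR-200a-3p -8.7e-05 to 2.40, miR-200b-3p -0.15 to 2.58, miR-200c-3p -0.78 to 3.26, miR-182-5p -0.10 to 0.81 and miR-96-5p -0.036 to 1.03, each lowest without AM608 5. miR-143-3p ran from -0.40 to 0.065, miR-503-3p from -0.0049 to 0.24, miR-450b-5p from -0.21 to 0.35, miR-10a-5p from -0.012 to 0.11, miR-132-5p from -0.095 to 0.032 and miR-212-5p from -0.087 to 0.018. tRF-35-PSQP4PW3FJI0E7 ran from -0.15 to 0.75, tRF-36-PSQP4PW3FJI0E7E from -0.077 to 0.84 and tRF-36-87R8WP9N1EWJQ7D from -0.024 to 0.71, each lowest without RCD 10.

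Of the 11 differences in composition, in percentage points, 4 kept their sign under every alternative run: leaving out 1 library gave -4.64 to -2.27 for 5′-halves, 1.88 to 6.15 for lysine, -5.99 to -2.35 for glutamate and -0.59 to -0.15 for glycine tRNAs. The other 7 did not, with -2.57 to 8.17 for 5′-tRFs, -5.22 to 5.41 for i-tRFs, -0.57 to 0.24 for 3′-tRFs, -0.041 to 0.24 for 3′-halves, -0.78 to 1.37 for leucine, -0.25 to 0.14 for histidine and -0.11 to 0.19 for glutamine tRNAs. With tRFs of up to 46 nt only, the values were -1.05 for 5′-tRFs, 4.22 for i-tRFs, 0.39 for 3′-tRFs and 0.10 for histidine. i-tRFs were at 0.11 over tRFs past the low-count filter, and 3′-tRFs at 0.24 without AM608 8 and RCD 10. The log2 ratio of tRFs to miRNAs differed by 0.059 in group medians, and by -0.14 to 0.16 leaving out 1 library. Intervals lay within 2-fold for 42 of the 113 tRFs above 1000 CPM and for 230 of the 236 miRNAs above 100 CPM; the part that depth (53683 to 160383 tRF counts) plays in this was not tested.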

Other observations

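miR-199a-3p, whose counts in the deposited table are identical to those of miR-199b-3p, was chosen after its values were seen. It is a miRNA of mesenchymal and mural cells. It ran from 61.5 through a median of 117 to 196 CPM in AM608, with RCD 9 to 12 at 191, 200.1, 137 and 183 CPM. Of the 8 AM608 libraries, 6 lay below every RCD library, and the log2 fold change was -0.59 ± 0.24 (SE; edgeR, adjusted p = 0.637).

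Among the 38 5′ fragments of 30 to 33 nt, 3 were not lower in AM608: tRF-33-XSXMSL73VL4YDN at 0.23 and tRF-31-PW5SVP9N15WV0 at 0.04, both of HisGTG, and tRF-33-86J8WPMN1E8Y0E of GluTTC at 0.0045.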
